A study of Homo sapiens with 9 samples.

Results

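The basal p65 sites described here are regions of the genome of 786-O cells where p65 was found in both libraries made without TEAD knockdown and without XMU-MP-1. 786-O is an established human cell line from a clear cell renal carcinoma. A site is a peak of the control list that at least 1 bp of a peak of the vehicle list overlapped, mitochondrial peaks left out. The rule kept 12297 of 15465 control peaks, and these sites make up 12297 of the 60343 regions in the 5 lists of the series. The peaks left over, 3168 in the control list only and 5654 in the vehicle list only, served as the comparison.

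The series has 9 libraries of 786-O chromatin, 1 per condition, of which 4 are inputs and 5 are immunoprecipitates with a peak list each. The control cells carry no treatment label, and the vehicle cells are labelled as given vehicle. The 3 other lists are p65 in a sample titled siTEAD4, p65 in cells given XMU-MP-1, and TEAD in cells given XMU-MP-1, which blocks the kinases MST1 and MST2 of the Hippo pathway. The labels do not say what the control cells received in place of the siRNA, or what the vehicle was. Peak identifiers inside the siTEAD4 list carry another name, p65_Vert, so it is called the list labelled siTEAD4. Cells were kept in RPMI-1640 with serum, and no stimulus is named. All cells come from 1 line, the control and the vehicle library are not labelled as replicates, and no difference has a test across samples. The intervals given are 95% intervals that cover the counting of peaks only. The read depth of the libraries is unknown, since peak lists give no counts.

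p65, encoded by RELA, is a DNA-binding subunit of NF-κB. In resting cells NF-κB dimers are held in the cytoplasm by IκB proteins such as the product of NFKBIA, and signals from TNF or IL-1 receptors lead to IκB breakdown and to entry of the dimers into the nucleus. There they bind κB sequences near genes of inflammation and survival. Among these genes are those of the IκB proteins and of TNFAIP3 (A20), which switch the pathway off again. Occupancy without a named stimulus is often called constitutive. These peak lists show where p65 was bound and say nothing about expression.

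Many of the bound promoters of inhibitors, subunits, survival genes and chemokines, though not all, carried the letters that NF-κB is known to recognise. The sequences below are examples with such a match, from genes that had a basal site within 1 kb of the start. Bound genes without a match, such as RELA, BCL3 and CXCL8, are not printed. Each is a stretch before the gene start from RefSeq (build GRCh38.p14), printed 5′ to 3′ on the strand of the gene, with matches to the κB consensus on either strand in capitals. They were matched to the peaks by gene symbol only, since the peaks are in build hg19.
NFKBIA: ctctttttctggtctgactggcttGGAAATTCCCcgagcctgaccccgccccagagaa
TNFAIP3: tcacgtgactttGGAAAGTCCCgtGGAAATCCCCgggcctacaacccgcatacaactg
TNIP1: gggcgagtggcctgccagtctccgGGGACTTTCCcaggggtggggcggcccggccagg
NFKB1: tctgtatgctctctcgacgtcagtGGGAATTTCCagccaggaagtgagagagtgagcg
REL: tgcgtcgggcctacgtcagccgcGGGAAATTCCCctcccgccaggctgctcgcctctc
BIRC3: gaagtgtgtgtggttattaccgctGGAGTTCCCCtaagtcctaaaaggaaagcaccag
CXCL1: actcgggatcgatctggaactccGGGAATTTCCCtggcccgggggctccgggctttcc
CXCL2: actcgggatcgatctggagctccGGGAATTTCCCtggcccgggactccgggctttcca
CXCL3: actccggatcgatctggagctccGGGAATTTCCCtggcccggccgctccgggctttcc
CXCL5: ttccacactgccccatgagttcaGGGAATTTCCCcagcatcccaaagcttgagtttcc
CXCL10: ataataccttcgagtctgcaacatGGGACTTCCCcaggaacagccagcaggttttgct

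The printed stretches lie on GRCh38.p14 at chr14:35404797-35404854 (minus strand) for NFKBIA, chr6:137867180-137867237 (plus) for TNFAIP3 and chr5:151081043-151081100 (minus) for TNIP1. For NFKB1 the stretch is chr4:102501286-102501343 (plus), for REL chr2:60881504-60881561 (plus) and for BIRC3 chr11:102317325-102317382 (plus). The chemokine stretches are chr4:73869291-73869348 (plus) for CXCL1, chr4:74099239-74099296 (minus) for CXCL2, chr4:74038734-74038791 (minus) for CXCL3, chr4:73998734-73998791 (minus) for CXCL5 and chr4:76023586-76023643 (minus) for CXCL10. In CXCL1, CXCL2, CXCL3 and CXCL5 the same 11 letters, GGGAATTTCCC, match the consensus on both strands and begin 79, 78, 79 and 91 bases before the start. The letters around them were shared among CXCL1, CXCL2 and CXCL3 and less so with CXCL5. Aligned on the κB letters without gaps, 63 of 70 bases were identical between CXCL1 and CXCL3, 57 of 70 between CXCL1 and CXCL2, and 31 of 70 between CXCL1 and CXCL5. TNFAIP3 has 2 matches within its printed stretch.

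At listed genes of the NF-κB pathway, promoters with a basal site carried these letters more often than promoters in general. The 250 bases before the start were searched on both strands for the κB consensus, and a gene counted when any of its RefSeq starts had a match. Of the 27305 genes in the promoter table, 11.8% had one (3221 genes). Of 40 listed genes that had a basal site within 1 kb of the start and an entry in the table, 24 did (60%, Wilson interval 44.6 to 73.7%), against 18 of 90 listed genes with no such site (20%, 13.04 to 29.4%). The excess lay in the 7 lists of NF-κB genes, from inhibitors to adhesion genes. Of their 29 bound genes 22 had a match (75.9%, 57.9 to 87.8%), and of their 52 other genes 13 (25%, 15.2 to 38.2%). The share of those other genes is also above the 11.8% of all genes. Whether the choice of genes has a part in the contrast with promoters in general was not tested. In the other 6 lists 2 of 11 bound genes had a match (18.2%, 5.14 to 47.7%), an interval that includes the share of all genes. With the stricter letters GGGANTTTCC, a subset of the consensus, the counts were 14 of 40, all 14 in the 7 NF-κB lists, and 3 of 90, beside 0.645% of all genes. TGANTCA, the AP-1 letters, were found in 8 of the 40 and 10 of the 90, beside 8.06% of all genes. GGAATG, the TEAD letters, were found in 5 of the 40 and 13 of the 90, beside 14.3% of all genes. No match says only that the letters are not in this stretch. RELA, BCL3, ICAM1 and CXCL8 had a basal site within 1 kb and no κB match there.

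Strong peaks were shared between the control and vehicle libraries and weak ones often were not. Basal sites had a median fold enrichment of 6.51 in the control list, where the fold is the authors' value for the summit over the local background. Control-only peaks had a median of 4.91, and none was above 11.8. From the vehicle side the medians were 6.90 for peaks with a control peak and 4.88 for vehicle-only peaks, which reached 11.9 at most. Among control peaks, all 1547 of the top decile by fold were shared (at least 99.8%), and in the third decile from the bottom 60.2% were (57.7 to 62.6%). In the vehicle list the strongest decile was shared completely as well, and the lowest share was 41.8% (39.5 to 44.1%) in the second decile. Basal sites were also longer, with a median of 327 bp against 229 bp for control-only peaks. The rule itself uses overlap, which favours long and strong peaks, so these values are a description. At the edge of the rule, 5 sites overlapped a vehicle peak by 20 bp or less, with folds from 3.91 to 4.88. On the other side, 4 control-only peaks lay less than 20 bp from a vehicle peak, with folds from 4.36 to 4.97.

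**Figure D1:**
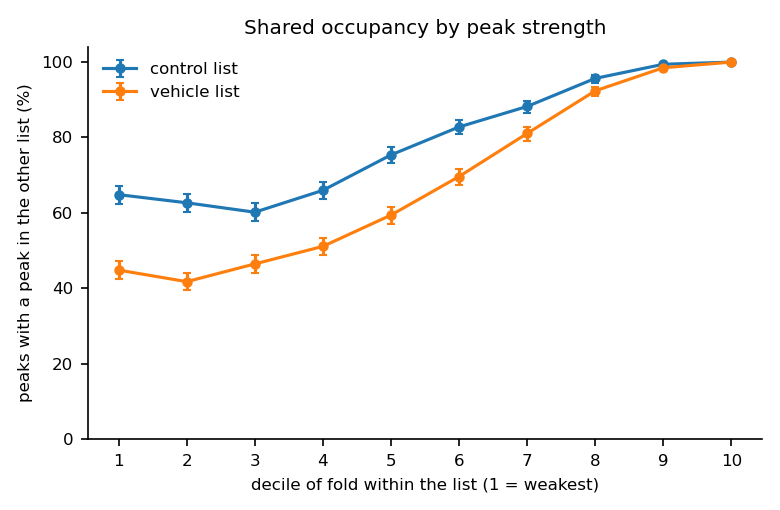
Share of peaks that had a peak in the other list of the pair, control or vehicle (%), by decile of fold within each list from weakest to strongest. Points are the control and vehicle lists and bars are 95% Wilson intervals, which cover counting only. The share was 60.2% at its lowest in the control list, 41.8% at its lowest in the vehicle list, and 100% in the strongest decile of each.

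Where a site was called in both libraries, its summits mostly lay close together and its folds were mostly within 2 times of each other. The rule requires overlap and the median site was 327 bp long, so close summits are largely set by the rule. The lower and upper quartiles of the control fold were 5.09 and 9.26, so nearness of folds says little by itself. Of 12297 basal sites, 12228 had exactly 1 vehicle peak. Summits of overlapping peaks were at most 50 bp apart in 69.6% of pairs and at most 100 bp apart in 90.4%. The folds of a site lay within 1.5 times of each other at 75.3% of sites and within 2 times at 94.5%. Across the sites the folds of the libraries had a Spearman rho of 0.641, as a description, since sites of a library share its depth and background. The order at the top was looser: 9 sites were among the strongest 20 of both lists, and 49 among the strongest 100 of both.

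**Figure D2:**
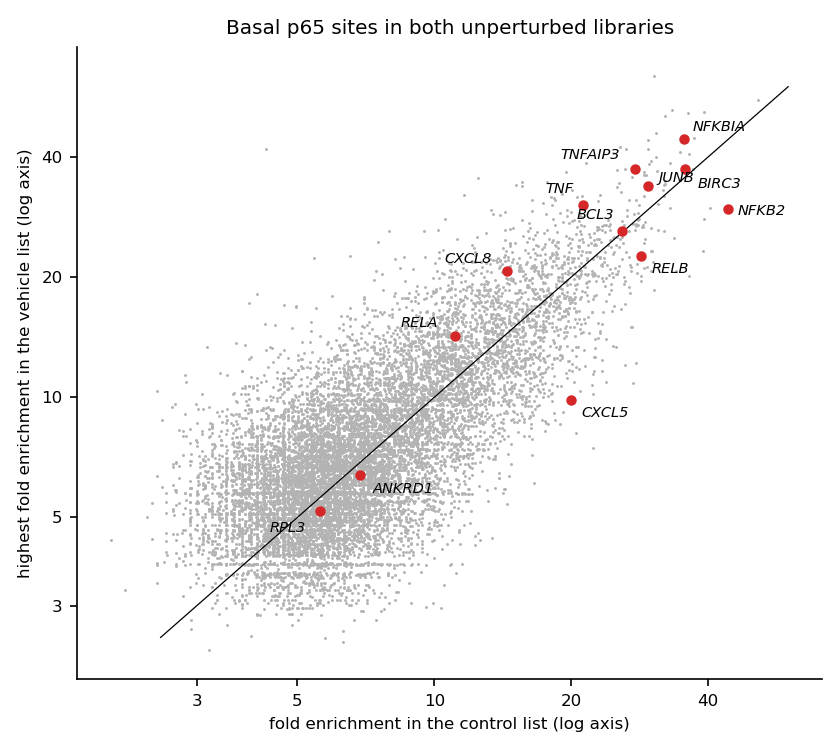
Fold enrichment of each of the 12297 basal sites in the control list (horizontal, log axis) and the highest fold of the overlapping vehicle peaks (vertical, log axis). The line marks equal folds, and red points are the leading sites of named genes, with NFKBIA, BIRC3, NFKB2 and TNFAIP3 at the top right and RPL3 among the weak sites.

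The inhibitor genes of NF-κB were nearly all bound. The leading site of a gene is, here and for the other lists, the one within 10 kb whose worse rank by fold in the 2 libraries is best. For 171 of 176 listed genes an hg19 position was written from general knowledge and checked against RefSeq by gene length or by distance to a neighbour, since no hg19 annotation was given. Of 9 inhibitor genes placed, 8 had a basal summit within 10 kb of the start and 7 within 1 kb, where 6.37% and 0.77% of all 1 kb bins of the genome did. Bins are not genes, and the lists of ribosomal proteins and other lineages given further on are the nearest thing here to a background of genes. NFKBIA encodes IκBα and had a site at chr14:35872863-35874367, with a control fold of 35.5 and a vehicle fold of 44.3. The summit of this site lay inside the gene, 0.855 kb past the start. That site also had a p65 peak under the siTEAD4 label (fold 34.2) and under XMU-MP-1 (38.2). A further 7 sites lay past the 3′ end of NFKBIA at chr14:35834742-35860497, with control folds from 6.13 to 14.9.

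TNFAIP3, encoding the ubiquitin-editing enzyme A20, had a site over its start at chr6:138187836-138188637 (27.7 and 37.3 in control and vehicle). A second site lay inside the gene at chr6:138194353-138194929 (22.7 and 24.1). NFKBIE, encoding IκBε, had folds of 20.8 and 27.6 at chr6:44233242-44233612. NFKBID, which encodes a nuclear IκB protein, had 18.95 and 21.2 at chr19:36390581-36390978. NFKBIB, encoding IκBβ, had 17.7 and 15.8, and NFKBIZ, another nuclear IκB gene, 17.8 and 10.1. TNIP1 encodes a partner of A20 and had 8 sites within 10 kb, of which the one at chr5:150466562-150467048 had the best worse rank of its folds, 16.3 and 15.03. Other sites within 10 kb had a control fold of up to 20.1 and a vehicle fold of up to 23.4. CYLD, encoding a deubiquitinase, had 11.6 and 15.3. TNIP2 had no site within 10 kb and 2 within 50 kb, where 22.8% of bins had one. The nearer, chr4:2747755-2748367 inside the gene, was just outside the window at 10.09 kb, with folds of 15.7 and 20.7.

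All 6 genes on the list of subunits, which also holds the cofactor gene BCL3, had a basal site within 1 kb of the start. NFKB2, encoding p100 and p52, had a site of 1983 bp over its start region, chr10:104153691-104155673, where the control library had a fold of 44.1 and the vehicle library 29.6. RELB had 28.5 and 22.6 at chr19:45504318-45504885. BCL3 encodes a nuclear cofactor of p50 and p52 dimers. It had 7 sites within 10 kb, of which the one at chr19:45250565-45251084 had folds of 25.9 and 26.0. NFKB1, encoding p105 and p50, had 15.7 and 15.4 at chr4:103422196-103422651. REL had 12.5 and 10.5. RELA itself, encoding the protein precipitated here, had 11.1 and 14.3 at chr11:65430456-65430878.

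**Figure D3:**
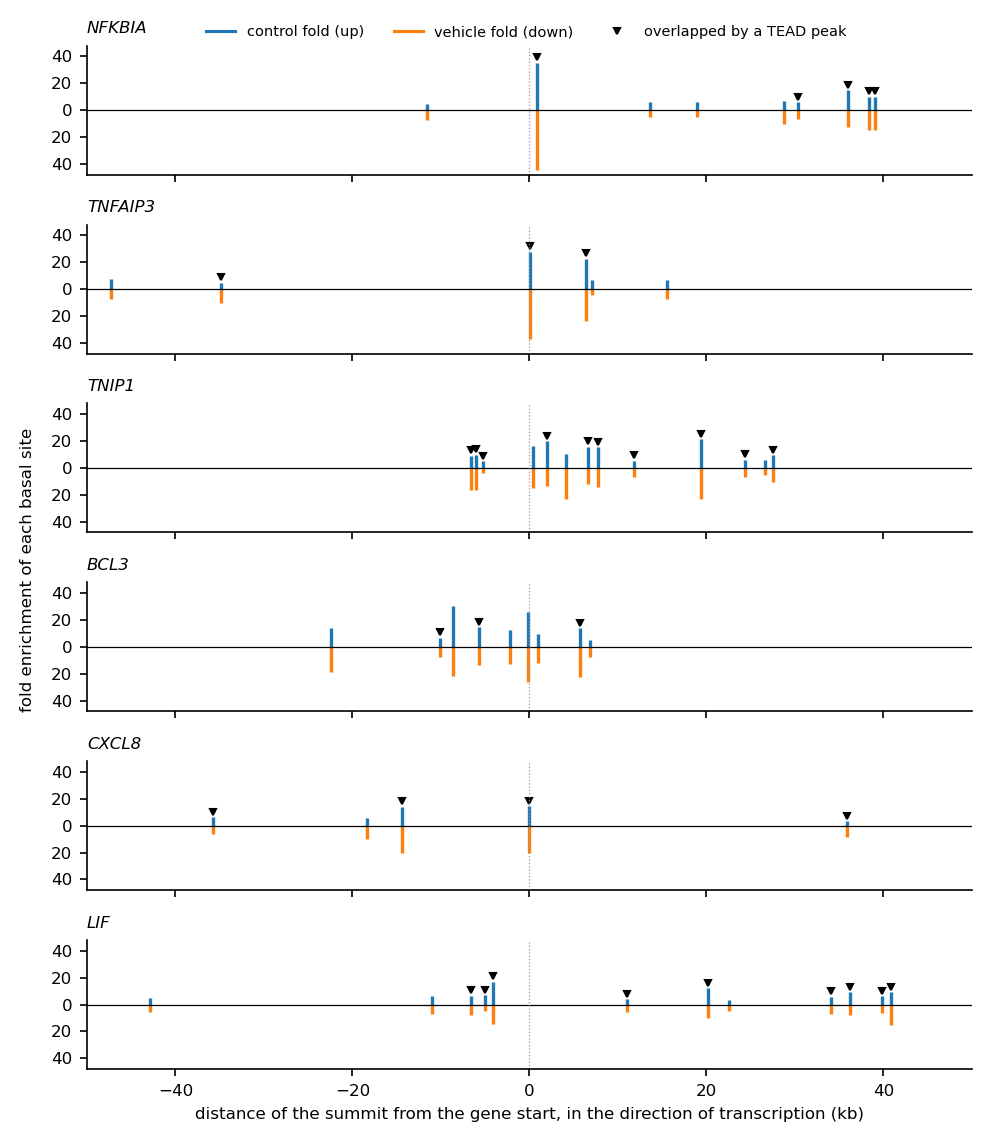
Basal sites within 50 kb of 6 gene starts, by distance of the summit from the start in the direction of transcription (kb). Blue bars point up to the control fold, orange bars point down to the vehicle fold, and triangles mark sites overlapped by a TEAD peak. NFKBIA has 1 dominant site at the start, and TNFAIP3 has its strongest site there and a second strong site inside the gene. TNIP1 and BCL3 have rows of sites on either side of the start.

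The receptors, adaptors and kinases that lead to NF-κB were bound less evenly: 16 of 29 placed had a basal site within 10 kb and 5 within 1 kb. The leading sites belonged to TRAF3, MAP3K8 and TRAF1. TRAF3, a brake on the non-canonical pathway, had folds of 23.7 and 19.05 at chr14:103243584-103244075. MAP3K8, encoding the kinase TPL2, had 20.01 and 23.7 at chr10:30722639-30723730. TRAF1 had 13.4 and 17.5, TRAF2 15.5 and 13.1, TNFRSF1B, a TNF receptor gene, 11.5 and 17.6, and IRAK2 11.3 and 10.4. The kinase genes CHUK, MAP3K7 and IRAK4, the adaptor gene TRAF6 and the receptor genes TLR3 and TLR4 had no basal site within 100 kb, where 35.6% of bins had one. LTBR, TNFRSF11A, TRAF5, TRADD, RIPK1, TAB1 and TAB2 had one within 100 kb and none within 10 kb.

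Among survival genes 8 of 12 had a site within 10 kb. BIRC3, encoding the inhibitor of apoptosis cIAP2, had 35.5 and 37.3 at chr11:102187751-102188431, over the start. SOD2, the mitochondrial superoxide dismutase gene, had 22.996 and 26.4 at chr6:160122445-160123152. BIRC2, encoding cIAP1 beside BIRC3, had 19.5 and 16.7. CFLAR, encoding the caspase-8 regulator FLIP, had 11.5 and 17.6. GADD45B had 16.96 and 12.7, with 4 sites within 10 kb, and FAS, a death receptor gene, 13.2 and 11.2. XIAP, BCL2, BCL2L1 and MCL1 had none within 10 kb, and BCL2 none within 100 kb.

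Of 16 chemokine genes 10 had a site within 10 kb, and for 6 of them one lay within 1 kb. CXCL8, encoding interleukin 8, had a control fold of 14.5 and a vehicle fold of 20.7 at chr4:74606036-74606439. CXCL1 had 13.4 and 13.97 at chr4:74734817-74735228, and CXCL10 10.1 and 12.3 at chr4:76944611-76944931. CXCL5 differed more between the libraries, with 19.95 and 9.81 at chr4:74864291-74864689. CXCL2 had 7.81 and 11.1 and CXCL3 6.89 and 8.11, and they carry the same 11 κB letters as CXCL5. Stronger sites of this gene cluster lay away from the starts, at chr4:74982613-74983126 (24.9 and 21.05), 17.9 kb before CXCL2, and at chr4:74953129-74953520 (20.8 and 21.4), 11.7 kb past its start. CXCL8 had a further site of 14.1 and 20.5 at chr4:74591606-74592145, 14.4 kb before its start. CCL2, the monocyte chemoattractant gene, had 15.2 and 11.5 at chr17:32579469-32580048. CXCL6, CXCL11, CXCL16, CCL7, CCL8 and CCL13 had no site within 10 kb.

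Of 16 cytokine genes 13 had a site within 10 kb. TNF, LTA and LTB lie side by side and share 1 site, chr6:31546146-31546610, with folds of 21.2 and 30.2. IL32 had 24.5 and 19.2 at chr16:3115060-3115743, and CSF1, the macrophage growth factor gene, 19.3 and 19.5 at chr1:110452865-110453592. IL7 had 21.05 and 17.8. LIF, a cytokine of the interleukin 6 family, had 12 sites within 50 kb, led by 16.97 and 14.2. IL6 had 1 weak site within 10 kb, with 4.66 and 3.63. IL1A and IL1B had none within 10 kb and 2 each within 50 kb, and TSLP had none within 50 kb.

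Adhesion and matrix genes with a site within 10 kb numbered 7 of 13. MMP9, a gelatinase gene, had 16.6 and 22.96 at chr20:44636396-44637410. VCAM1, a leukocyte adhesion gene, had 17.1 and 13.9 at chr1:101185057-101185455, and ICAM1 had 4 sites, led by 13.8 and 16.1 at chr19:10382315-10382763. PLAU had 11.1 and 7.15 and PLAUR 12.3 and 10.1. SELE, ICAM4, ICAM5, MMP3, MMP10 and TNC had none within 10 kb.

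**Figure D4:**
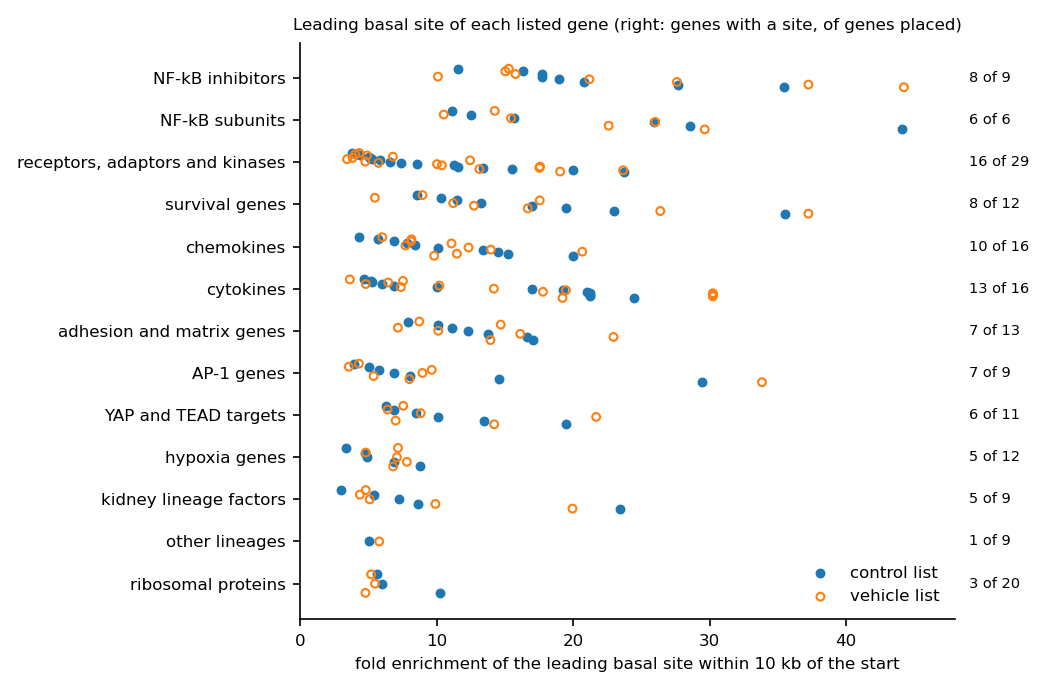
Fold enrichment of the leading basal site within 10 kb of the start of each listed gene, in the control list (filled) and the vehicle list (open), by gene list. Numbers at the right count genes with a site among genes placed. All 6 genes of the subunit list, BCL3 included, and 8 of 9 inhibitors have one, against 3 of 20 ribosomal protein genes.

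Lists outside the NF-κB pathway had a site within 10 kb at 27 of 70 genes. AP-1 genes were the most often bound of these lists, at 7 of 9, led by JUNB with 29.5 and 33.8 at chr19:12904155-12904996. FOSB had 14.6 and 7.99, and FOS 3.96 and 4.30. BATF and BATF3 had none within 10 kb. YAP and TEAD targets had one at 6 of 11, among them AXL (19.5 and 14.2), AJUBA (13.4 and 6.99) and AMOTL2 (10.1 and 21.7). ANKRD1, a classical YAP target, had only 6.87 and 6.40, at a place where the TEAD fold was 46.9. CCN2, LATS2, CRIM1, TGFB2 and NT5E had none within 10 kb. Farther from the start but inside the gene, TGFB2 had 3 sites (folds up to 11.1 and 11.7), NT5E 2 and CRIM1 1. A TEAD peak overlapped all of those in TGFB2 and NT5E and not the one in CRIM1.

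Hypoxia genes, of interest because 786-O lacks functional VHL, had a site within 10 kb at 5 of 12, with leading control folds of 8.74 or less. VEGFA had 4.77 and 4.80. CA9, SLC2A1, PDK1, EGLN3, ANKRD37, LOX and BNIP3 had none within 10 kb. SLC2A1 did have 5 sites inside the gene, farther from the start, with control folds up to 10.4 and vehicle folds up to 8.87. A TEAD peak overlapped 4 of them. Of 9 kidney lineage genes 5 had one, led by CDH16, a kidney cadherin gene, with 23.4 and 19.95 at chr16:66959298-66959814. CDH16 had no site within 1 kb of its start, and whether a gene that was not placed lies nearer to this site was not checked. PAX8 had 8.61 and 9.90 with a TEAD fold of 19.2, and PAX2, EMX2, HNF4A and CDH6 had none within 10 kb. Of 9 genes of other lineages only SYT1 had one (5.03 and 5.78), and of 20 ribosomal protein genes 3 did: RPS3, RPL3 and RPS19, with control folds from 5.61 to 10.2.

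Basal sites were more frequent near genes of the NF-κB lists than near the other listed genes as a whole, with a wide range between lists. The 7 lists from inhibitors to adhesion genes hold 101 placed genes, and the other 6 lists 70. A basal summit lay within 10 kb of the start at 68 of the 101 (67.3%) and 27 of the 70 (38.6%). The 70 include the lists of ribosomal proteins and other lineages, with 4 of 29 (13.8%). The AP-1, YAP and TEAD, hypoxia and kidney lists together had 23 of 41 (56.1%), which is close to the receptor list (55.2%) and the adhesion and matrix list (53.8%) among the NF-κB lists. Control-only peaks did so at 9 of the 101 (8.91%) and 7 of the 70 (10.0%), where 1.96% of 1 kb bins had one. Vehicle-only peaks did so at 23 of the 101 (22.8%) and 19 of the 70 (27.1%), where 3.4% of bins had one. The lists were chosen with earlier results of these data known, so the counts are a description.

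The 20 leading sites, ordered by the worse of their ranks by fold in the 2 libraries, had control folds from 29.7 to 51.5 and vehicle folds from 34.2 to 63.9. Most of them lay over 10 kb from the start of any gene that was placed. The genes named here were placed after the sites were seen, and nearest means nearest among those genes only. Only some of the 20 are described. The first site was chr13:110317996-110318683, with 51.5 and 55.6, on a chromosome that had few sites. The nearest start placed was that of IRS2, encoding insulin receptor substrate 2, 121 kb away. The second was chr14:94811669-94813247, with 39.2 and 51.7, 23.1 kb from the start of SERPINA6. NFKBIA came 5th and BIRC3 12th. Others lay inside genes, at chr10:99642107-99642820 in CRTAC1 (36.2 and 51.6), chr5:179245750-179246620 in SQSTM1 (34.8 and 41.1) and chr19:42625760-42626294 in POU2F2 (37.1 and 37.3). The highest vehicle fold of all, 63.9, was at chr1:232980425-232980979, where the control fold was 30.5. SQSTM1 encodes the autophagy receptor p62, and POU2F2 the transcription factor OCT2.

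Of these 20 sites, 19 had a p65 peak under the siTEAD4 label, 19 had one under XMU-MP-1, and 14 had a TEAD peak. The exception in both p65 lists was chr11:109957601-109958137 (33.0 and 38.6), 6.21 kb before the start of ZC3H12C. The related gene ZC3H12A, encoding regnase-1, which cleaves inflammatory mRNAs, had a site at chr1:37942719-37943341 with 26.8 and 26.1. Before the start of SBNO2 were sites of 30.7 and 45.8 at chr19:1177602-1178127 and of 28.2 and 28.0 at chr19:1180281-1180851. IRF1, encoding an interferon regulatory factor, had 27.5 and 28.8 at chr5:131833211-131834362. A site at chr2:89157514-89158118 (28.9 and 32.0) lay 0.714 kb before IGKC, the immunoglobulin kappa constant gene.

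MicroRNA genes known as NF-κB targets were among the bound loci. A site at chr5:159894276-159895402 (29.97 and 23.2) lay at the start of MIR3142HG, the host transcript of MIR146A. MIR21 had 6 sites within 20 kb, with the strongest at chr17:57923301-57924027 (23.9 and 21.4), where a TEAD peak had a fold of 17.2. The leading MIR155 site was weak in the control list (4.86) and stronger in the vehicle list (9.92). Another MIR155 site had 4.65 and 4.27. The mature products of the first pair are printed, from RefSeq (build GRCh38.p14), to show the seeds (bases 2 to 8, in capitals), which differ.
miR-146a-5p: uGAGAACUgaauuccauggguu
miR-21-5p: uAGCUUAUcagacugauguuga

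Basal sites came in groups more often than the peaks of 1 list only had a basal neighbour. Joined where summits were at most 10 kb apart, 4470 sites (36.4%, 35.5 to 37.2%) fell into 1817 groups of 2 or more. Of control-only peaks 27.1% (25.6 to 28.7%) had a basal summit within 10 kb, and of vehicle-only peaks 28.8% (27.7 to 30.04%). Of all 1 kb bins 6.37% had one. These shares were not compared at the same fold or length. Groups of 5 or more numbered 73 and held 447 sites. The largest, with 18 sites, spanned chr1:228744171-228782829, where the repeated 5S ribosomal RNA genes lie. These copies are nearly identical, so short reads can be placed in more than 1 of them, and the sites there may not be separate. Basal sites there also carried p65 under the siTEAD4 label at 17 of them and under XMU-MP-1 at 16. The span also held 17 TEAD peaks, and 2 of the basal sites were overlapped by one.

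The second group was TNIP1, with 13 sites over chr5:150439513-150474514, of which 10 had a TEAD peak. The next held 10 sites at chr9:114699992-114731621. BCL3 followed with 8 over 17.3 kb, and a group of 8 at chr9:114782999-114823827 reached into SUSD1. Its strongest site, chr9:114790515-114791555 (27.2 and 35.7), lay outside SUSD1, whose own sites had vehicle folds of 22.4 at most. Groups of 8 also lay in SMAD3, a TGF-β signal transducer gene, in MYH9 and at KLF6. Between start and end, the genes with most sites among those placed were SMAD3 (15), ZMIZ1 (12), MYH9 (11), TNIP1 (10) and SUSD1 (9). Those genes are long as well, and a count was not set against gene length.

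By chromosome, basal sites were densest on 19, 17 and 22, with 6.79, 6.70 and 6.18 per Mb, against 3.98 over all. They were sparsest on Y (0.492 per Mb, 29 sites), 13 (0.966) and X (1.28). The share of control peaks that were basal was lowest on 13 (66.9%, 59.4 to 73.6%). On the dense chromosomes 19, 17 and 22 this share was 78.9%, 78.8% and 82.7%, near the 79.5% over all. The copy number of chromosomes in these cells was not analysed.

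The other p65 lists, which the rule did not use, had peaks at basal sites and at few peaks of 1 list only. p65 peaks of the list labelled siTEAD4 overlapped 14.01% of basal sites (13.4 to 14.6%), 0.442% of control-only peaks and 0.566% of vehicle-only peaks. p65 peaks of the XMU-MP-1 list overlapped 12.6% (11.998 to 13.2%), 0.789% and 0.531%. In the other direction, 1733 of the 1813 peaks in the list labelled siTEAD4 (95.6%) and 1551 of the 1649 in the XMU-MP-1 list (94.1%) lay on a basal site. At the same deciles of fold the excess over control-only peaks fell from 13.6 to 6.27 percentage points (5.69 to 6.86) for the list labelled siTEAD4. For XMU-MP-1 it fell from 11.8 to 5.82 points (5.21 to 6.43). The strongest decile holds no control-only peak and has no part in these values.

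TEAD peaks overlapped p65 peaks of every class, and basal sites more often than peaks of 1 list only. They overlapped 6141 basal sites (49.9%, 49.1 to 50.8%), 37.5% of control-only peaks (35.9 to 39.2%) and 36.2% of vehicle-only peaks (35.0 to 37.5%). The excess over control-only peaks was 12.4 points (10.5 to 14.3), and 15.3 points (11.6 to 19.01) at the same deciles of fold. At the same deciles of peak length it was 4.18 points (1.22 to 7.15), and 4.70 points (2.45 to 6.96) over vehicle-only peaks. With peaks of −log10 q of at least 10 in every list, 31.4% of basal sites had a TEAD peak, and the excess over vehicle-only peaks was 1.26 points, with an interval that includes 0 (-1.10 to 3.62). Basal sites with a TEAD peak were not stronger for p65, with a median control fold of 6.40 against 6.61 without one. Sites in groups had a TEAD peak more often (59.8%, 58.3 to 61.2%) than sites alone (44.3%, 43.2 to 45.4%). In the other direction, 6093 of the 23459 TEAD peaks (26.0%) lay on a basal site, and 39.5% on any control or vehicle peak. The share of the genome with a TEAD peak was not computed as a background. TEAD was profiled in cells given XMU-MP-1 only, so its occupancy in untreated cells was not measured.

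**Figure D5:**
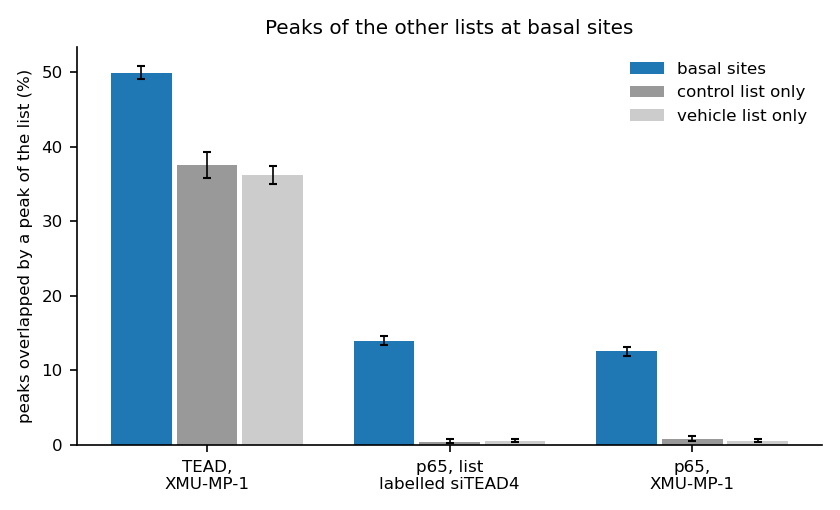
Share of basal sites, control-only peaks and vehicle-only peaks (%) overlapped by a peak of each of the 3 other lists. Bars carry 95% Wilson intervals, which cover counting only. TEAD peaks overlap 49.9% of basal sites and 36.2 to 37.5% of peaks of 1 list only, while p65 peaks of the other lists overlap 12.6 to 14.01% of basal sites and under 1% of the others.

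Basal sites fell into classes by these lists. No peak of the 3 others overlapped 5612 sites (45.6%), and a TEAD peak alone overlapped 4591 (37.3%). All 3 lists had a peak at 903 sites (7.34%), among them NFKBIA, TNFAIP3, NFKB2, BIRC3, JUNB and CXCL8. Those 903 had a median control fold of 13.2 and a median length of 540 bp, against 6.40 and 295 bp for sites in none of the 3. The 272 sites in both other p65 lists without a TEAD peak had a higher median control fold, 16.1. Sites with a TEAD peak alone had the lowest of the classes, 5.81. RELA, the leading BCL3 site, TRAF3 and CXCL10 had a peak in none of them.

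The strongest peak of the control list only and that of the vehicle list only fell just below the top decile of fold. The first 5 of the control list only had folds from 9.84 to 11.8, led by chr2:46173119-46173793, inside PRKCE, where a TEAD peak had a fold of 20.5. The nearest vehicle peak was between 121 bp and 69712 bp away from these 5, and nearest for chr10:47171784-47172058. Of the vehicle list only, the first 5 had folds from 11.01 to 11.9. The peak at chr17:7590535-7591055 was the 1 among those 5 that had a p65 peak in the other lists, with folds of 7.42 in the list labelled siTEAD4 and 5.65 with XMU-MP-1. The nearest control peak to it was 107593 bp away.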

How the data were processed

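The submitters' processing notes name fastp, Bowtie2 2.4.5, MACS2 and build hg19; no source used here gives the settings or which input went with which list. The deposited columns are, per peak, a ratio (fold over local background), a −log10 p-value, a −log10 q-value and a score; the p-values and the score were not used. Folds describe and rank peaks within a list. There is 1 library per condition, so no test was run.

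Peaks were compared in Python 3.11.15 using numpy 2.4.6 and pandas 2.3.3 and tested on simulated data. Shares have 95% Wilson intervals and differences normal-approximation intervals. Alternatives were other overlap rules, −log10 q limits, windows and joining distances, and deciles of fold; deciles of length were added after seeing the data. Members and gene lists were chosen with earlier results of these data known.

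No hg19 annotation or genome was used. Gene positions in hg19 were written from general knowledge for 269 genes, 93 of the placed ones outside the lists and added after site values were seen. A script kept a gene when its chromosome and its length (231 genes) or its distance to another such gene within 8 Mb (33) matched RefSeq GRCh38.p14 within 2 kb; 5 were left out. Shares at promoters, over all protein-coding genes and of κB letters in peaks were therefore not computed. The naming rule was the 20 leading sites, up to 6 leading genes and those without a site of each list, the first 5 peaks of 1 list only, and the 5 largest groups and gene bodies. The text describes part of these and, beyond the rule, further genes whose values had been seen: the remaining inhibitors, CXCL2, CXCL3, other genes of short lists, sites between chemokine genes, groups after the fifth, and ZC3H12A, SBNO2, IRF1, IGKC and the microRNA genes. Promoter and microRNA sequences are from RefSeq, GRCh38.p14; of 171 placed list genes 130 matched the promoter table. Values of some listed genes are not reported here.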

Additional observations from a re-analysis of the deposited data

How the results depend on the processing

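Of the shares, differences and totals, 45 values moved outside the interval or 1.5-fold range of the reported one and 23 did not. Of the counts for single gene lists 23 moved and 55 did not: at −log10 q of 10 the ribosomal and other-lineage lists went to 0 genes, while the inhibitor and subunit lists stayed at 8 and 6. None changed sign. The share of control peaks that were basal was 78.8% with an overlap of 50% of the shorter peak, 77.5% with summits within 200 bp, 78.5% at −log10 q of at least 5 and 80.9% at 10. The vehicle share was 66.7% with summits within 200 bp, 69.5% at −log10 q of 5 and 71.8% at 10. The TEAD share of basal sites was 48.7% with 50% overlap, 44.4% with summits within 200 bp, 42.1% at −log10 q of 5 and 31.4% at 10. At −log10 q of 5 and 10 the siTEAD4 share was 15.05% and 15.7%, and the XMU-MP-1 share 13.8% and 14.04%.

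Differences over control-only and vehicle-only peaks, in percentage points and in that order, were as follows. At the same deciles of fold they were 15.3 and 15.7 for TEAD, 6.27 and 4.43 for siTEAD4, and 5.82 and 4.42 for XMU-MP-1. At the same deciles of length they were 4.18 and 4.70 for TEAD, 10.7 and 9.63 for siTEAD4, and 8.56 and 8.40 for XMU-MP-1. With summits within 200 bp they were 9.62 and 11.8 for TEAD, and 11.1 for XMU-MP-1 over control-only peaks. At −log10 q of 5 they were 4.75 and 7.43 for TEAD, 14.3 and 14.4 for siTEAD4, and 12.8 and 12.8 for XMU-MP-1. At 10 they were 3.55 and 1.26, 15.3 and 14.8, and 13.1 and 13.1. The causes were not tested, except that fewer peaks enter at the stricter limits.

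Listed genes with a basal site numbered 95 within 10 kb, 54 within 1 kb and 145 within 100 kb. Groups of at least 2 sites numbered 1817, and 528 at −log10 q of 10. The promoter, protein-coding gene and peak motif alternatives were not run, for want of an hg19 annotation and genome. No paired analysis was possible because no condition has more than 1 library. Peak lists carry no depth, so sites missing from a list may be below its detection limit.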
